A study of Rattus norvegicus with 4 samples.

Results

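Transcripts of ion exchangers, cation-chloride cotransporters, the sodium pump and aquaporins were described in rat Sertoli cells, the somatic cells that surround and nourish germ cells in the seminiferous tubule. Members were taken by gene name: every gene whose platform symbol consisted of Slc4a, Slc8a, Slc9a, Slc12a, Slc24a, Slc26a, Atp1a, Atp1b or Aqp and a number, and that had a probe set carrying this symbol alone. This gave 51 genes of the 14217 that could be named on the array, with 66 probe sets between them, and for each gene the probe set with the highest mean signal over the 4 arrays was used. The tested cells came from male Sprague-Dawley rats aged 20 days and were held for 72 h with cAMP, the messenger that follicle-stimulating hormone raises in Sertoli cells. The untreated cells had the same strain, sex, age and culture time. Both groups were plated in serum-free Ham's F-12 medium, and each is represented by 2 one-colour Affymetrix arrays that the labels call biological replicates. It is not stated if the replicates were separate cell preparations, so the spread behind each p-value is that between these samples and may be technical. Neither the compound used as cAMP nor its concentration is stated in the sources used here.

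The sodium pump exports sodium and imports potassium at the cost of ATP. It is built from a catalytic alpha subunit and a glycosylated beta subunit that carries it to the membrane, with a small FXYD protein as an optional regulator. The ion gradients it makes power many of the carriers described here, while some anion exchangers do not depend on sodium. SLC9 proteins exchange sodium for protons, SLC8 and SLC24 proteins exchange sodium for calcium, SLC12 proteins move chloride together with sodium or potassium, and SLC4 and SLC26 proteins carry bicarbonate, chloride and other anions. Aquaporins let water follow. In the testis such carriers serve the secretion of tubule fluid, which Sertoli cells make.

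Of the 51 genes, 21 were bright enough to be tested, and 4 of them differed between cAMP and control cells. The pump's beta subunit gene Atp1b2 and the potassium-dependent sodium-calcium exchanger gene Slc24a3 rose, while the beta subunit gene Atp1b1 and the chloride-bicarbonate exchanger gene Slc4a2 fell. The other 17 tested genes did not pass, and their log2 differences were at most 0.57 in size. A gene was tested if the mean of log2(signal + 16) over the 4 arrays reached the 40th percentile of all probe sets, a signal of about 18.3, and it passed at an adjusted p under 0.05 by limma with Benjamini-Hochberg adjustment over all 18625 probe sets tested. By the same rule 8.27% of the 10035 named genes tested were higher with cAMP and 7.16% lower, 15.4% in all (over all probe sets tested 7.29% and 6.39%, 13.7% in all), so 2 higher and 2 lower among 21 is close to the share over all genes and is no result about these families as a group. The median log2 difference was -0.03 for the 21 genes and -0.03 for all genes tested.

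The arrays were alike in range, with a median signal of 31.3 to 33.7 and 64.3% to 66.4% of probe sets above background, taken as the highest signal of 27 Bacillus control probe sets, 14.2. The labelled cell type was checked against its markers. Of 10 Sertoli cell markers with a probe set, 9 lay above background on all 4 arrays, Clu, Cldn11, Wt1 and Inha among them, and Rhox5 did not. These markers were not all steady between groups. Inha (log2 difference 2.04), Dhh and Shbg were called higher with cAMP, and Gata4 (-0.94) and Aard lower. Their summed signal was 25240 to 25410 with cAMP and 23290 to 24840 in control. Transcripts of germ cells were present in both groups, with a summed signal of 2289 to 3036 with cAMP and 3012 to 3263 in control over 5 markers. The summed signal of 6 peritubular myoid markers was 165.5 to 215.4 with cAMP and 442.8 to 600.3 in control, with Tagln and Synpo2 lower and Des higher. Without Tagln the sums overlapped, at 164.2 to 208.0 with cAMP and 178.5 to 255.8 in control. The sum of 4 endothelial markers was 88.3 to 91.2 with cAMP and 155.6 to 229.5 in control, with Kdr lower, and without Kdr it was 30.2 to 33.7 with cAMP and 24.8 to 42.2 in control. The late germ cell markers Tnp1 and Prm1, the Leydig cell markers Cyp17a1, Hsd3b1 and Lhcgr, the macrophage markers Ptprc, Cd163 and Adgre1 and the endothelial markers Pecam1 and Vwf were at or below background on every array. Of the same lists, the Leydig marker Cyp11a1 (42.4 to 50.9 with cAMP, 40.6 to 42.1 in control) and the macrophage marker Lyz2 (26.4 to 27.6 with cAMP, 47.3 to 108.6 in control) were above background on all 4 arrays, and Cd68 was so with cAMP alone (28.1 to 45.2, against 4.1 to 6.2 in control). The part of these other cells in the results that follow was not tested, and in bulk RNA fewer cells of a type and less RNA per cell cannot be told apart. Control replicate 2 stood furthest from the cAMP arrays (r across probe sets of 0.895 and 0.900, against 0.925 and 0.924 for control replicate 1), and its ratio of 3' to 5' actin signal was 2.25, against 1.65 to 1.86 on the other arrays.

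To show the start regions behind these genes, the 250 bases before the RefSeq start (assembly GRCr8) are given for the called members that the promoter table holds, and for the third beta subunit gene, Atp1b3, which did not pass. The windows are chr10:54823709-54823958 (minus strand) for Atp1b2, chr3:153005168-153005417 (plus strand) for Slc24a3, chr4:11645403-11645652 (minus strand) for Slc4a2 and chr8:105821152-105821401 (minus strand) for Atp1b3. Capitals mark the letters searched, which were read on both strands: TGACGTCA is the full cAMP response element and TGACG its half-site, which the full element contains. GGGCGG is the GC box, and the TATA box was searched as TATAAA. On the other strand the half-site reads CGTCA and the GC box reads CCGCCC.
Atp1b2: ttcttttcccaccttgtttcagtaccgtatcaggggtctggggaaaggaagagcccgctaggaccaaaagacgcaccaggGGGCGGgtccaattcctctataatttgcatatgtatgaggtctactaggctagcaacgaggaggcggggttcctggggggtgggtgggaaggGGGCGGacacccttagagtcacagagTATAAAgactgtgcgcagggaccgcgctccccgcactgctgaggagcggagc
Slc24a3: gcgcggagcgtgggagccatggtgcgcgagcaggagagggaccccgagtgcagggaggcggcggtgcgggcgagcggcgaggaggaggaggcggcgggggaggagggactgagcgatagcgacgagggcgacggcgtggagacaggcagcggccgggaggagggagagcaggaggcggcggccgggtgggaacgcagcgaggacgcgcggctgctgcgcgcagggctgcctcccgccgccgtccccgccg
Slc4a2: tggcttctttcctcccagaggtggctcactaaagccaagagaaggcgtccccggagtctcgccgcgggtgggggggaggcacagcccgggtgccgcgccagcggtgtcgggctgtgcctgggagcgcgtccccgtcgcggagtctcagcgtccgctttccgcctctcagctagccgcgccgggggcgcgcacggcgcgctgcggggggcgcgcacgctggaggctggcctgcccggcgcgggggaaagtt
Atp1b3: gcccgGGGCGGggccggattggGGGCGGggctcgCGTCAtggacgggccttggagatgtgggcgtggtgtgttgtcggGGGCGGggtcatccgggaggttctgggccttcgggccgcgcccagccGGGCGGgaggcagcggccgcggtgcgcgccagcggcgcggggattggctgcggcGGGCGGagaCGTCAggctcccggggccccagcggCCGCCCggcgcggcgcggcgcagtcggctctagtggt

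The Atp1b2 window holds a TATA box whose first base lies 52 bases before the start and GC boxes 170 and 78 bases before it. The Atp1b3 window holds 6 GC boxes and half-sites 216 and 62 bases before the start, and the Slc24a3 and Slc4a2 windows hold none of these motifs. A full cAMP response element was found in 0 of the 45 members with an entry and in 1.70% of 27457 windows of the same length. The half-site occurred in 4 of the 45, against 19.0% of all windows, the GC box in 19, against 32.4%, and the TATA box in 5, against 13.1%. These are matches of letters in a short window and say nothing about binding of a factor. Atp1b1 was among the members not matched.

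In the sodium pump the beta subunit genes Atp1b2 and Atp1b1 changed in opposite directions. Atp1b2 (probe set 1379906_at), whose product is also known as the adhesion molecule on glia, had signals of 1132 and 1249.5 on the cAMP arrays, against 563.1 and 613.6 on the control arrays. Both cAMP arrays lay above both control arrays. The means were 1191 ± 83.1 with cAMP and 588 ± 35.7 in control (SD, n = 2 arrays each), a log2 difference of 1.00 ± 0.13 (SE, adjusted p by limma = 0.00323). Its second probe set was dim, at 61.1 and 88.3 with cAMP, against 14.7 and 4.1 in control. There the log2 difference was 1.85 ± 0.28 (adjusted p by limma = 0.0056), of uncertain size because 1 control array lay below background. This probe set cleared the filter through its cAMP values and adds no support. On the brighter probe set Atp1b2 no longer passed without cAMP replicate 2 (adjusted p by limma = 0.0676) and passed when any other array was left out.

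Atp1b1 (1367814_at), the beta subunit common in transporting epithelia, fell. Its signals were 758.3 and 903.8 with cAMP, against 1206.2 and 1479 in control. The groups did not overlap, although the arrays of each differed clearly. The log2 difference was -0.68 ± 0.15 (adjusted p by limma = 0.0289). The second Atp1b1 probe set gave 714.2 and 915.2 with cAMP, against 1199 and 1436.6 in control, with a log2 difference of -0.69 ± 0.16 (adjusted p by limma = 0.034). The probe sets thus gave nearly the same difference, on the same RNA. The call of the first probe set was lost without cAMP replicate 1 (adjusted p by limma = 0.286), without cAMP replicate 2 (0.115), without the filter on dim probe sets (0.073) and without the intensity trend in the variance (0.0727).

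The third beta subunit, Atp1b3 (1398300_at), did not pass (adjusted p by limma = 0.94). Its signals were 1200.6 and 1270.6 with cAMP and 1365.8 and 1081.8 in control, the cAMP arrays lying between the control arrays. The log2 difference was 0.02 ± 0.15, with a 95% interval of -0.32 to 0.37, which does not reach the difference seen for Atp1b2. From the change in both, the ratio of Atp1b2 to Atp1b1 signal was 1.68 higher on the log2 scale with cAMP. This ratio was chosen after the values were seen and was not tested, and since probe sets differ in brightness only its change is given. Atp1b4, which in mammals is found mainly in muscle, and Atp1a4, the alpha subunit of sperm, were below background on all 4 arrays.

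**Figure D1:**
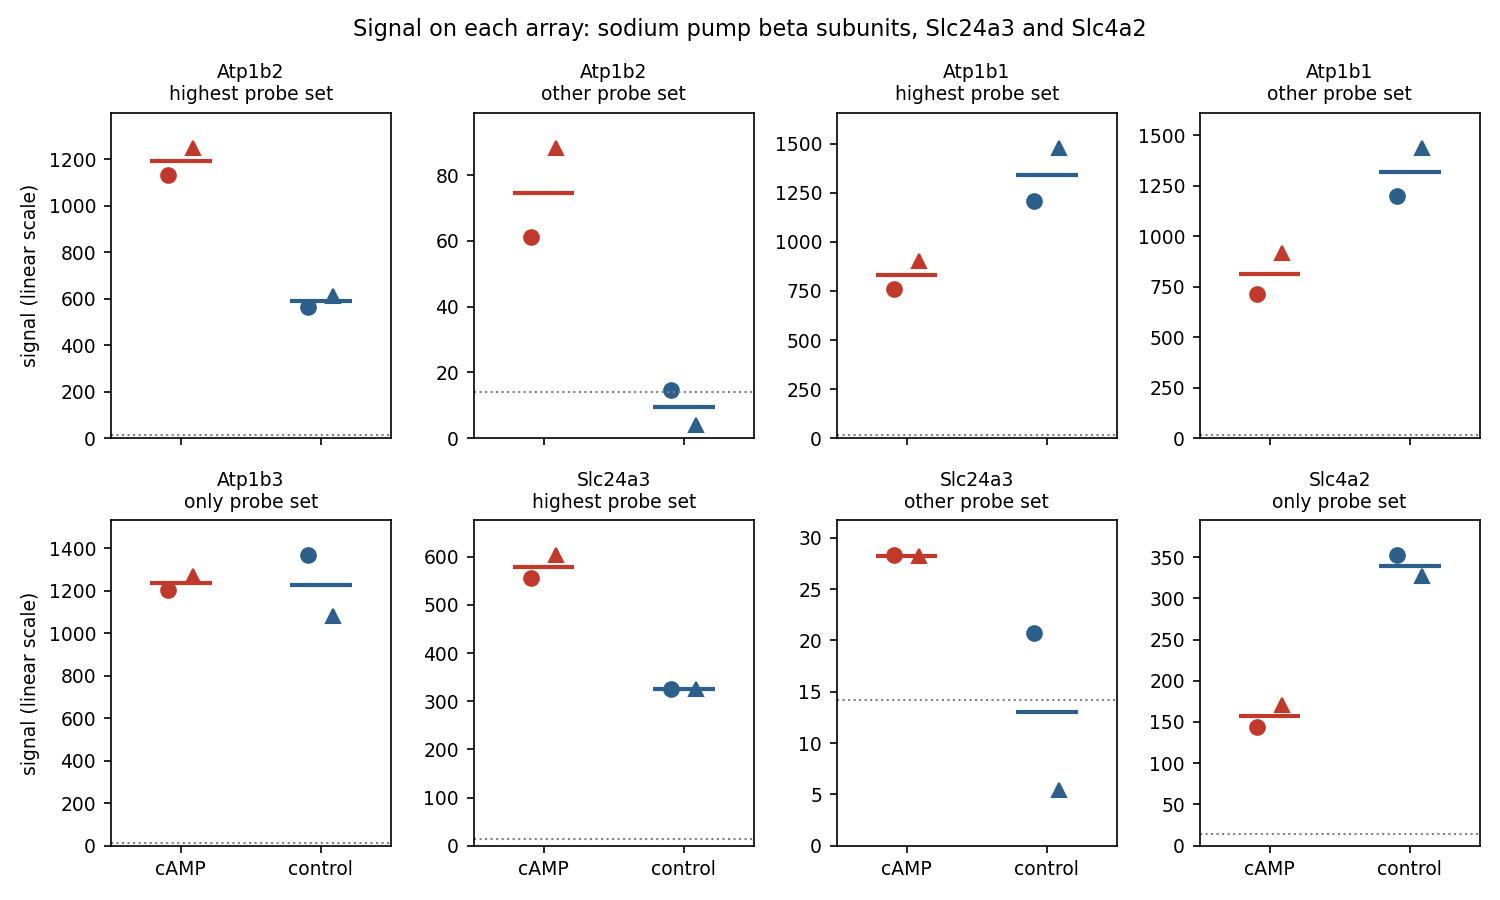
Signal on a linear scale (y axis) of the sodium pump beta subunit genes, Slc24a3 and Slc4a2 on each array, with cAMP on the left and control on the right of every panel; circles are replicate 1, triangles replicate 2, bars the group means (n = 2) and the dotted line the background of 14.2. Both Atp1b2 probe sets and Slc24a3 are higher with cAMP, both Atp1b1 probe sets and Slc4a2 are lower, and the Atp1b3 cAMP arrays lie between the control arrays.

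Among the carriers of bicarbonate and other anions, 6 of 15 genes were tested. By limma 1 fell, none rose and 5 did not pass. At an unadjusted p under 0.05, 2 were lower and 0 higher. Every gene called at the adjusted threshold also meets this one, so at least 15.4% of all genes tested do. The exact share was not computed, and the count does not set this family apart. Slc4a2 (1368082_at), which encodes the exchanger AE2 that swaps chloride for bicarbonate, fell to 143.9 and 170.5 with cAMP, against 352.1 and 326.4 in control. The means were 157 ± 18.8 with cAMP and 339 ± 18.2 in control (SD, n = 2 arrays each), the log2 difference -1.04 ± 0.16 (adjusted p by limma = 0.00636), and the groups stood well apart. The call was lost without cAMP replicate 1 (adjusted p by limma = 0.101) and narrowly without cAMP replicate 2 (0.0506). Slc4a7, the sodium-bicarbonate cotransporter NBCn1, had signals of 442 and 403.3 with cAMP, against 536.5 and 616.1 in control. Its arrays did not overlap either, but the log2 difference of -0.43 ± 0.14 did not pass (adjusted p by limma = 0.0987), and its dimmer probe set gave -0.21 ± 0.21. It passed without control replicate 1 (adjusted p by limma = 0.0254).

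The remaining tested genes of this group had small differences. Slc26a6, an apical anion exchanger of epithelia, was at 38 and 38.9 with cAMP, against 61 and 45.7 in control (log2 difference -0.34 ± 0.21). Slc26a8, a carrier known from male germ cells, was at 38.1 and 30.7 with cAMP and at 41.2 and 36.5 in control. The sodium-bicarbonate cotransporter gene Slc4a4 (-0.03 ± 0.22) and Slc4a11 (-0.02 ± 0.20) overlapped between the groups. All 6 differences were negative in sign, but 2 of them, those of Slc4a4 and Slc4a11, changed sign when an array was left out.

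Of the dim members of this group, 3 were above background on both cAMP arrays and below it on both control arrays. The share of all genes doing so was not computed, so this count does not set the group apart. Dim members of other families lay in either direction. Slc12a3 was at 5.6 and 0.7 with cAMP and at 18 and 13 in control, the last below background. Slc9a4, below background throughout, was at 4.9 and 8.4 with cAMP and at 3.6 and 4.1 in control. Of all members below the filter, 7 had both cAMP arrays above both control arrays and 4 had them below. The chloride-bicarbonate exchanger gene Slc4a3 was at 24.9 and 27.8 with cAMP and below background in control, at 8.7 and 9. It fell short of the filter and was not tested there, being at least 1.85-fold higher. Slc4a1, the anion exchanger of red cells, was at 27.6 and 21.2 with cAMP and below background in control, at least 1.70-fold higher. Its second probe set was below background on all 4 arrays and went the other way, at 2.5 and 1.3 with cAMP and 8.2 and 5.4 in control. The sulfate carrier gene Slc26a1 was at 15.1 and 17.8 with cAMP, little above background, and at 6.9 and 7.8 in control, at least 1.15-fold higher. These bounds divide the geometric mean of the brighter group by that of the dimmer group with each value raised to the background. The 3 genes were chosen after their values were seen. Without any filter on dim probe sets Slc4a3 did not pass (adjusted p by limma = 0.104), and neither did Slc4a1 (0.189). Among probe sets above background on both arrays of a group, Slc4a3 passed (adjusted p by limma = 0.0414) and Slc4a1 did not (0.0923). That filter admitted both genes through their cAMP arrays alone, so the Slc4a3 pass adds no support. Slc4a10, Slc26a2, Slc26a5 and Slc26a10 were at or below background on all 4 arrays.

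Of the 7 sodium-calcium exchanger genes 3 were tested, 1 rose and 2 did not pass. Slc24a3 (1376165_at), an exchanger that moves potassium along with calcium, had signals of 555.2 and 602.9 with cAMP, against 324.7 and 325.8 in control. The control arrays were nearly equal and both cAMP arrays were well above them. The log2 difference was 0.80 ± 0.14 (adjusted p by limma = 0.00948), and the call was lost without either cAMP array (adjusted p by limma = 0.105 without replicate 1 and 0.145 without replicate 2). A dim second probe set had 28.3 and 28.2 with cAMP and 20.7 and 5.4 in control and did not pass (0.66 ± 0.29). Slc8a1, the exchanger NCX1 of many cell types, was at 286.1 and 257.8 with cAMP, against 223.2 and 159 in control. Both cAMP arrays were above both control arrays, yet the log2 difference of 0.49 ± 0.19 did not pass (adjusted p by limma = 0.148). It passed only when control replicate 1 was left out (adjusted p by limma = 0.0155). Slc24a2 overlapped between groups (0.04 ± 0.26). Slc8a2, Slc8a3, Slc24a1 and Slc24a4 were below the filter, and the background was not exceeded on any array by Slc8a3 or Slc24a1.

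Of the cation-chloride cotransporters 5 of 8 genes were tested and none passed by limma at an adjusted p under 0.05, nor at an unadjusted p under 0.05. Slc12a2, the inward sodium-potassium-chloride cotransporter NKCC1, whose loss makes male mice sterile, was at 238.3 and 202.9 with cAMP and at 203.2 and 194.2 in control. Its groups overlapped, with a log2 difference of 0.14 ± 0.16 and a 95% interval of -0.24 to 0.52. Slc12a7, the outward potassium-chloride cotransporter KCC4, was at 194.6 and 195.3 with cAMP and at 187.3 and 129.4 in control. The cAMP arrays agree closely and the control arrays do not, and the log2 difference of 0.30 ± 0.20 did not pass (adjusted p by limma = 0.39). Slc12a5, the cotransporter KCC2 known from neurons, was dim, at 36.5 and 49.8 with cAMP and 15.1 and 34.3 in control (0.57 ± 0.28, adjusted p by limma = 0.236). Slc12a9 (0.19 ± 0.24) and the cotransporter KCC1 gene Slc12a4 (-0.19 ± 0.23) overlapped between the groups. Slc12a8 and the kidney cotransporter genes Slc12a1 and Slc12a3 were below the filter, Slc12a8 and Slc12a1 at or below background on all 4 arrays.

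Of 6 sodium-proton exchanger genes 2 were tested, and 0 passed by limma, also at an unadjusted p under 0.05. Slc9a2, an exchanger of the plasma membrane, was at 32.4 and 26.1 with cAMP, against 38.6 and 38.5 in control (-0.27 ± 0.20, adjusted p by limma = 0.435). Slc9a8, an exchanger of the Golgi, was at 44 and 53.8 with cAMP and 47.7 and 52.5 in control (-0.03 ± 0.20), with overlapping groups. Slc9a9, an exchanger of endosomes, lay close to background with 16.2 and 26 with cAMP and 16.6 and 13.6 in control. Slc9a3, Slc9a4 and Slc9a5 were below the filter, Slc9a3 and Slc9a4 at or below background throughout.

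Of 10 aquaporin genes 2 were tested, and limma passed 0 at an adjusted or an unadjusted p under 0.05. Aqp8, a water channel known from the testis, was at 109.7 and 76.9 with cAMP and at 98.5 and 188.1 in control. The control arrays differed from each other by more than the groups did, and the log2 difference of -0.50 ± 0.30 did not pass (adjusted p by limma = 0.324). The Aqp8 difference was -0.92 without control replicate 1, when the only control value left was the high one. It was -0.08 without control replicate 2. Aqp11, an aquaporin of intracellular membranes, was at 28.4 and 24.2 with cAMP and at 35 and 28.6 in control (-0.17 ± 0.21). The glycerol channel Aqp7 sat just above background on all 4 arrays, between 14.8 and 16.5. Aqp1 exceeded background on 1 cAMP and 1 control array, and Aqp2, Aqp3, Aqp4, Aqp5, Aqp6 and Aqp9 on none. Aqp12a, whose symbol goes on past the number and which was therefore no member, overlapped between the groups (-0.05 ± 0.26).

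**Figure D2:**
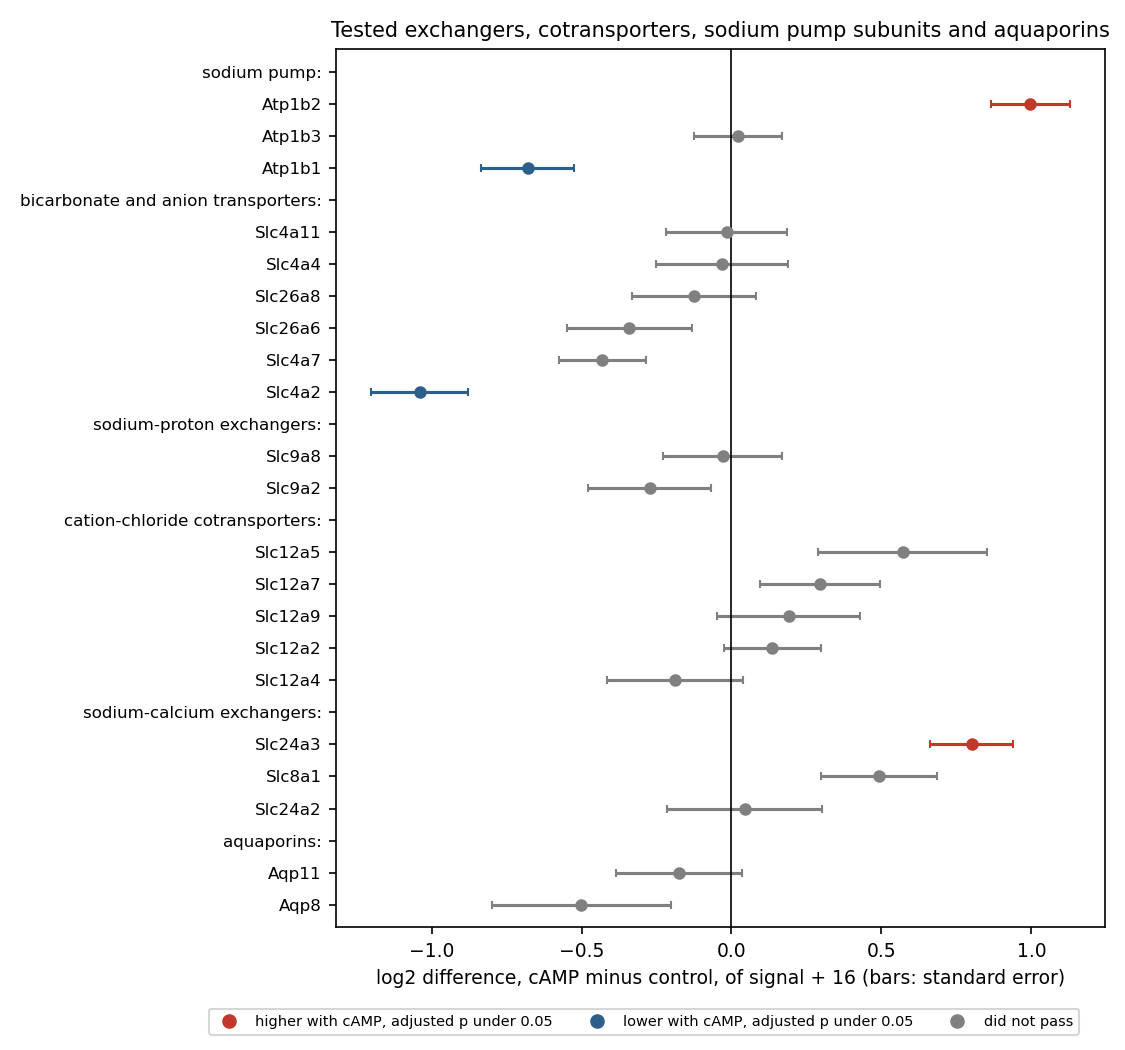
Log2 difference of signal + 16, cAMP minus control (x axis), with its standard error, for the 21 tested genes by family (n = 2 arrays per group); red is higher, blue lower and grey did not pass. Atp1b2 at 1.00 and Slc24a3 at 0.80 lie to the right, Slc4a2 at -1.04 and Atp1b1 at -0.68 to the left, and the 17 grey genes lie between -0.50 and 0.57.

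Both cAMP arrays lay above both control arrays for 5 of the 21 tested genes and below them for 6, while over all genes tested the shares were 28.8% and 32.6%. The 30 genes below the filter made up 58.8% of the members, against 29.4% of all named genes. Of all 51 members, 22 exceeded background on all 4 arrays, 11 on some and 18 on none. Of the 15 rat genes whose RefSeq symbols follow the same naming and that are not among the 51, none was analysed here.

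**Figure D3:**
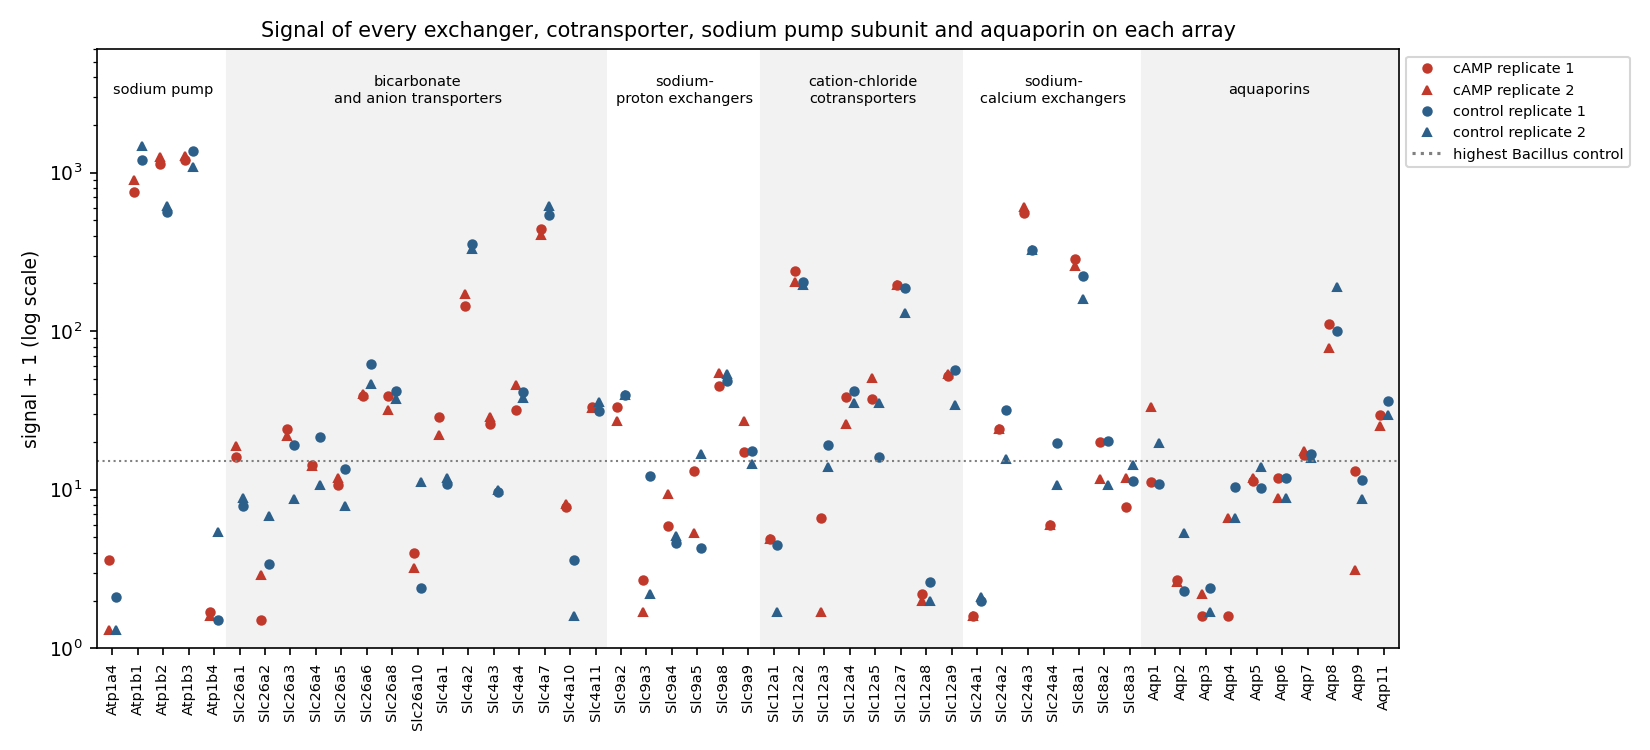
Signal + 1 on a log scale (y axis) of all 51 genes, by family, on each of the 4 arrays; red is cAMP, blue control, circles replicate 1 and triangles replicate 2, and the dotted line marks the background. Only 22 genes lie above the line on all 4 arrays; brightness may be compared between groups for a gene but not between genes.

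Genes known to work with these carriers were read from 6 lists drawn up by known function, which hold 55 genes with a probe set. Of the 29 tested, 6 were higher and 2 lower with cAMP, and 21 did not pass. That is 27.6%, against 15.4% of all genes tested. The lists were drawn up with earlier results of these data known, so the gap between these shares was not tested. Counts this small in each list do not set a list apart. The median log2 difference of the 29 was 0.23, against -0.03 for all genes tested.

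The FXYD regulators of the sodium pump held the largest difference among the carriers and their partner genes. Fxyd5, also called dysadherin, had signals of 2282.8 and 1830 with cAMP, against 249.1 and 305.4 in control. Every cAMP value was several-fold above every control value, the log2 difference was 2.82 ± 0.17 (adjusted p by limma = 0.000125), and the call held with any 1 array left out. Fxyd6 fell, at 287.2 and 284.6 with cAMP, against 572.9 and 411.1 in control (-0.73 ± 0.18, adjusted p by limma = 0.0405). The Fxyd6 call was lost without either cAMP array, without the filter and without the trend. Fxyd3 (0.34 ± 0.20) and Fxyd1 (0.23 ± 0.24) did not pass, and Fxyd2, Fxyd4 and Fxyd7 were below the filter. The pump's beta and FXYD genes thus each held 1 that rose and 1 that fell.

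The WNK and SPAK kinases belong to a pathway that controls the SLC12 cotransporters. Of 9 tested genes of these kinases and of the proteins that regulate them, 2 rose, none fell and 7 did not pass by limma. At an unadjusted p under 0.05, which at least 15.4% of all genes tested met, 2 were higher and 1 lower. Stk39, the kinase SPAK, had 463.7 and 420.9 with cAMP, against 139.4 and 140.4 in control (1.55 ± 0.15, adjusted p by limma = 0.000862). Its second probe set rose too (0.88 ± 0.19, adjusted p by limma = 0.0248). Wnk2 was at 78.3 and 63 with cAMP, against 17.4 and 21.7 in control (1.28 ± 0.21, adjusted p by limma = 0.00792), and lost its call without either cAMP array. The SPAK relative Oxsr1 (0.14 ± 0.17) did not pass, and neither did the ubiquitin ligase gene Nedd4l (-0.46 ± 0.18) or Cab39 (0.32 ± 0.14). The SLC12 cotransporter genes themselves did not pass in this comparison.

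Scaffolds and cofactors of the exchangers included 1 gene that rose and 1 that fell among 5 tested. Ezr, which encodes ezrin, the link between membrane proteins and actin, had 376.9 and 470 with cAMP, against 175.4 and 94.7 in control (1.59 ± 0.27, adjusted p by limma = 0.00878). Tesc, or tescalcin, a calcium-binding protein, fell to 118.7 and 112.9 with cAMP, against 289.1 and 417.6 in control (-1.46 ± 0.20, adjusted p by limma = 0.00399). Tesc passed with any 1 array left out, and Ezr did not pass without cAMP replicate 2 (adjusted p by limma = 0.0889). Nherf1 (0.28 ± 0.28), a scaffold of NHE3, and the SLC4 partner Ahcyl1 (-0.11 ± 0.14) did not pass, and the dimmer probe sets of Ahcyl1 gave positive differences that did not pass either (0.46 ± 0.19 and 0.58 ± 0.22).

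Carbonic anhydrases interconvert carbon dioxide and bicarbonate, and only 2 of 14 with a probe set were bright enough to test. Car2, the main cytosolic form, had 159.8 and 115.6 with cAMP, against 24.7 and 45.7 in control (1.60 ± 0.26, adjusted p by limma = 0.00801). Its second probe set rose as well, at 101.8 and 80.5 with cAMP, against 22.1 and 48.9 in control (1.10 ± 0.28, adjusted p by limma = 0.0449). The brighter probe set missed the threshold without cAMP replicate 1 (adjusted p by limma = 0.0941). Car11, a related protein without enzyme activity, did not pass (0.13 ± 0.21).

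Of 4 tested genes of other cation pumps none passed by limma at an adjusted p under 0.05. At an unadjusted p under 0.05, 2 were higher and 1 lower, where at least 15.4% of all genes tested met that threshold. The calcium pump of the endoplasmic reticulum, Atp2a2, was closest, at 1090.3 and 1068.8 with cAMP, against 820.9 and 755.9 in control (0.45 ± 0.12, adjusted p by limma = 0.0566), and it passed without control replicate 1 (0.0145). The calcium pump of the plasma membrane, Atp2b1, was at 712.3 and 872 with cAMP, against 488.2 and 613.5 in control (0.51 ± 0.17, adjusted p by limma = 0.0938), and it passed without control replicate 2 (0.0228). Of the 5 genes of the osmotic response 1 rose: the taurine transporter gene Slc6a6 had 249.5 and 214.7 with cAMP, against 34.9 and 30.4 in control. Its log2 difference was 2.35 ± 0.18 (adjusted p by limma = 0.00038), and the call held with any 1 array left out. A dimmer Slc6a6 probe set was at 39.9 and 42.3 with cAMP and below background on both control arrays, at 9.8 and 12.5, at least 2.89-fold higher. It cleared the filter through its cAMP values and adds no support. The myo-inositol carrier gene Slc5a3 (0.60 ± 0.21), the volume-regulated channel gene Lrrc8a (-0.39 ± 0.13) and Nfat5, the transcription factor of the response (-0.73 ± 0.27), did not pass. Akr1b1 was at 5347.2 and 5501.8 with cAMP and 4614.8 and 4717.2 in control. It did not pass either (0.22 ± 0.10, adjusted p by limma = 0.204), but did after quantile normalization. Each depended on the control arrays: Nfat5 was -1.19 without control replicate 1 (adjusted p by limma = 0.000554) and -0.27 without control replicate 2. With control replicate 2 left out Slc5a3 was at 0.88, and with control replicate 1 left out it was at 0.32. Lrrc8a and Akr1b1 moved less, at -0.42 and 0.20 without control replicate 1 and at -0.36 and 0.23 without control replicate 2.

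**Figure D4:**
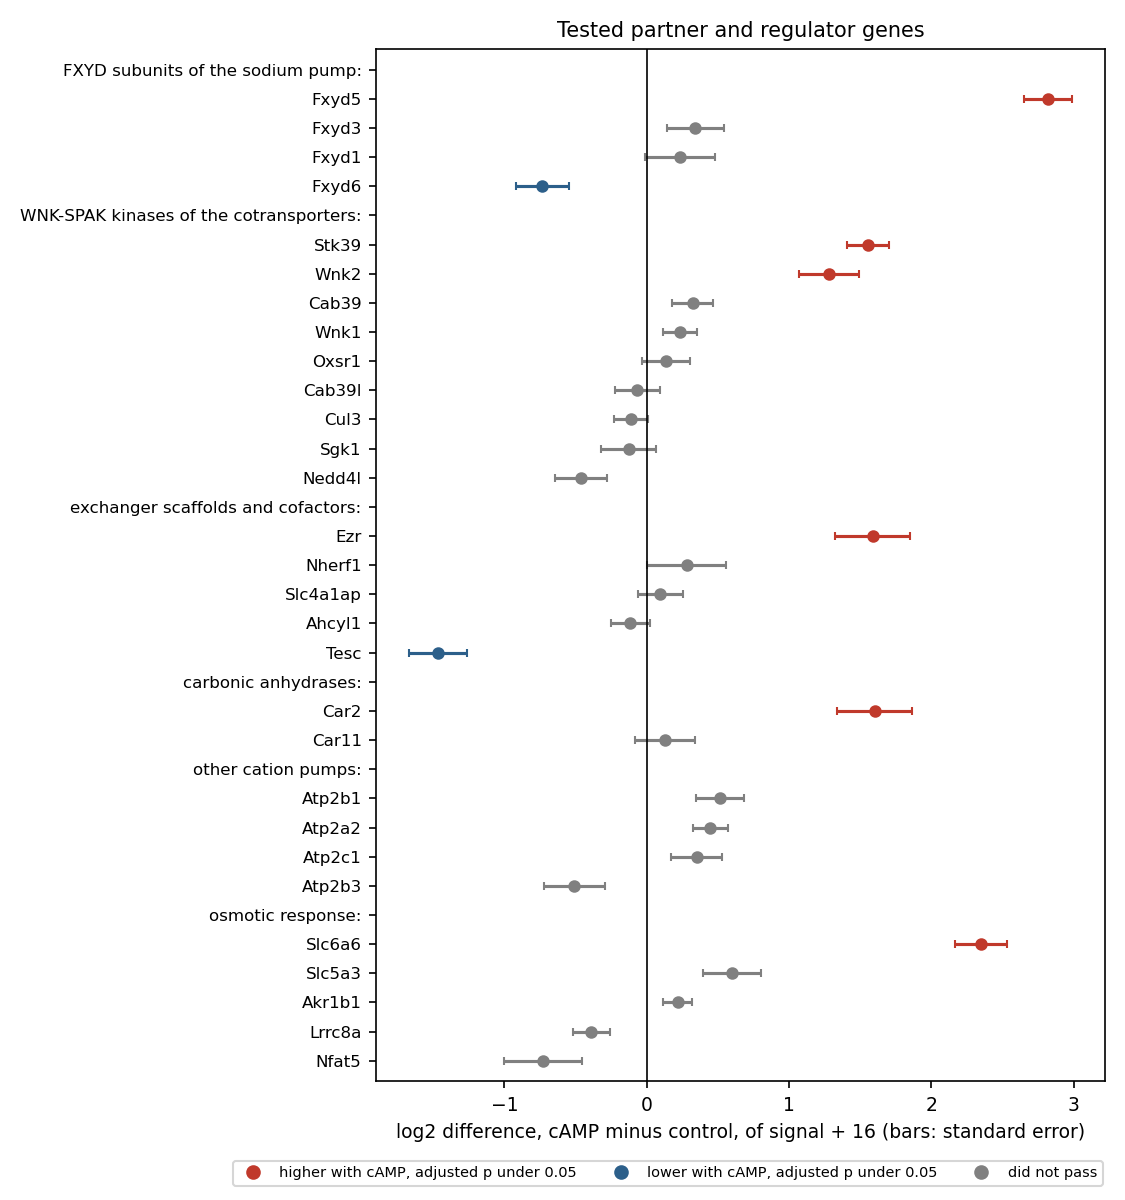
Log2 difference of signal + 16, cAMP minus control (x axis), with its standard error, for the 29 tested partner and regulator genes by list (n = 2 arrays per group); red is higher, blue lower and grey did not pass. Fxyd5 at 2.82 and Slc6a6 at 2.35 lie furthest to the right and Tesc at -1.46 furthest to the left.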

How the data were processed

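Total RNA of rat Sertoli cells was labelled with biotin and hybridised to 4 Affymetrix rat arrays, 2 per group. The authors deposited probe set intensity values on a linear scale, and per the submitters' processing notes GCOS and MAS5 were used to make them. Their versions and settings are not stated there. Each array had a trimmed mean of 125 (without the lowest and highest 2% of values), so they had been scaled alike. No genome build is named. Of 31099 probe sets 20832 carry 1 gene symbol, 436 several and 9831 none in the platform annotation, and 20819 symbols were brought up to date through a RefSeq gene table (GRCr8).

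From these values log2(signal + 16) was computed without further normalization. The added 16 understates changes of dim genes. Control probe sets were left out, and 18625 probe sets with a mean of at least 5.10 entered a fit by limma 3.58.1 under R 4.3.3 (eBayes with an intensity trend, two-sided). Signals are mean ± SD and log2 differences ± SE. Precision is limited by having 2 arrays a group. The procedure was tested on simulated data. Members and lists were chosen with earlier results of these data known, so no p is given over a list. Named are all members past the threshold, up to 4 further per family by smallest p, members with another probe set called and members at or below background, and of each partner list up to 6 past the threshold and 2 others by smallest p. Others were chosen after their values were seen. Alternatives were other pseudocounts, filters, quantile normalization, no trend, a replicate block and leaving out each array.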

Additional observations from a re-analysis of the deposited data

How the results depend on the processing

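Counts over all 18625 probe sets, 1358 higher and 1191 lower, ranged from 396 to 2467 and from 314 to 2381 when 1 array was left out, and were 873 and 725 without the filter. Of the 51 transporter genes, 0 to 4 were higher and 0 to 4 lower by limma with 1 array left out. None of the 4 member calls held with each array left out in turn, while their log2 differences kept their sign. Atp1b2 ranged from 0.93 to 1.07 and Slc24a3 from 0.74 to 0.86. Slc4a2 ranged from -1.15 to -0.93 and Atp1b1 from -0.83 to -0.53. The lower count was 1, Slc4a2, without the filter and also without the trend. Among probe sets above background on both arrays of a group the higher count was 3, as Slc4a3 entered through its cAMP arrays. Of the partner genes 4 to 8 were higher and 1 to 4 lower with 1 array left out, and 1 was lower, Tesc, without the filter and also without the trend. With the replicate number as a block, which 2 numbers per group cannot show to be a true pairing (correlation of deviations 0.163), 1540 probe sets were higher and 1495 lower, and the 51 genes again gave 2 and 2, while the partner genes gave 7 and 3, as Atp2b1 (adjusted p by limma = 0.0499) and Nfat5 (0.0361) passed. After quantile normalization 7 partner genes were higher, as Akr1b1 passed (0.42, adjusted p by limma = 0.00856). The cause of these changes was not tested beyond what the settings themselves alter: fewer arrays, more probe sets or rescaled signals.

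Among the genes named with a log2 difference, only ones that did not pass changed sign. After quantile normalization Atp1b3 was -0.023 and Slc4a11 0.0069. With 1 array left out, Atp1b3 ranged from -0.14 (without control replicate 2; -0.018 without cAMP replicate 2) to 0.19, Slc4a11 from -0.083 to 0.050 (without control replicate 2) and Slc4a4 from -0.22 to 0.16 (without cAMP replicate 1; 0.012 without control replicate 1). Slc12a4 ranged from -0.38 to 0.0031 (without cAMP replicate 2) and Slc9a8 from -0.14 to 0.080 (without cAMP replicate 1; 0.023 without control replicate 2). Without control replicate 2 Slc12a9 was at its lowest, -0.086, against a highest of 0.47, Slc24a2 at -0.26, against 0.35, and Fxyd1 at -0.029, against 0.50. Sgk1 ranged from -0.30 to 0.054 (without cAMP replicate 1; 0.037 without control replicate 1), Nherf1 from -0.077 (without cAMP replicate 1) to 0.64 and Car11 from -0.072 (without cAMP replicate 2) to 0.32. Dim signals limit what can be said of the 30 transporter genes below the filter.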
